A study of Mus musculus with 2 samples.

Results

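The 36 cell cycle genes described here were taken by symbol from a fixed list, out of 32286 features in the deposited matrices, and all 36 were found. They fall into 20 mitosis genes, 12 S phase genes and 4 genes of cell cycle entry and restraint. The cells came from lungs of C57BL/6J mice aged 10 to 12 weeks, in which Cre driven by the VE-cadherin promoter had switched on the red reporter tdTomato. Cells with the reporter were sorted and profiled by droplet sequencing of transcript 3' ends, with each molecule counted once through its unique molecular identifier (UMI). There was 1 library labelled aWT and 1 labelled aKO. The series title names a mouse model of HHT type 2, the hereditary vascular disorder caused by loss of the endothelial receptor ACVRL1. The labels name neither the deleted allele, the number of animals nor a treatment, and both libraries carried the same Cre and reporter. VE-cadherin is active in vascular, lymphatic and some blood-forming cells, so tdTomato marks cells with such a history and not a single vessel type.

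Cells divide in an ordered cycle that is driven by cyclins and their kinases. Genes for replicating DNA are switched on before and during S phase, largely through E2F transcription factors. Genes for building the spindle and separating chromosomes follow later, largely through complexes that act at a promoter element called the CHR together with nearby CCAAT boxes. Inhibitors of the Cip/Kip family hold the kinases back, and most endothelial cells of an adult lung are quiescent.

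The upstream sequences of 4 members are shown because these elements are part of how the S phase and mitosis genes are told apart. They were chosen after the members' values had been seen. Each is the 250 bases before the RefSeq start of the gene, GRCm38.p6, 5′ to 3′ on the gene's strand. Ube2c lies at chr2:164769679-164769928, plus strand. Cdk1 lies at chr10:69352913-69353162, minus strand. Mcm6 lies at chr1:128359706-128359955, minus strand. Mcm5 lies at chr8:75109259-75109508, plus strand. Capitals mark the CHR and CCAAT letters in Ube2c and Cdk1, and the E2F letters in Mcm6 and Mcm5. CCAAT letters in Mcm6 and Mcm5 and E2F letters in Cdk1 are also present but were left in lower case.
Ube2c: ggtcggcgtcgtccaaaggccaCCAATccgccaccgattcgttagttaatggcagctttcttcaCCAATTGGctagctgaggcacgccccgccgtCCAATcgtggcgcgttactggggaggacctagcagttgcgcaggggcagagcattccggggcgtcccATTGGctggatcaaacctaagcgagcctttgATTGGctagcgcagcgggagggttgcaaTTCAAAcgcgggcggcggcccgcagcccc
Cdk1: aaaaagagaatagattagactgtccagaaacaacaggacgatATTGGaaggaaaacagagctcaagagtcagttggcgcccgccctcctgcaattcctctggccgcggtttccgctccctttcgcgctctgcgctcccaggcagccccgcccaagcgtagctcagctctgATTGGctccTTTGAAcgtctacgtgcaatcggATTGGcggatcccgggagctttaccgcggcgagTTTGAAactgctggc
Mcm6: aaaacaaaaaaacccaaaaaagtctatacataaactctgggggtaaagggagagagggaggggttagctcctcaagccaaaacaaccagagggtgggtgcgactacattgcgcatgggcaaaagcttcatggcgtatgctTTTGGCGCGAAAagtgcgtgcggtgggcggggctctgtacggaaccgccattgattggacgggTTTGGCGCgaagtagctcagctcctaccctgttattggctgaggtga
Mcm5: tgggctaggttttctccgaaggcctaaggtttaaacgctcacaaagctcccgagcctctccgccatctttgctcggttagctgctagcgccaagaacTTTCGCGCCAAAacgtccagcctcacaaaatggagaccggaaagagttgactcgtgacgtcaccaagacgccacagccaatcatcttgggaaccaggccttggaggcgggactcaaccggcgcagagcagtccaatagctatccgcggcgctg

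The letters searched on both strands were TTTGGCGC, TTTCCCGC, TTTGCCGC and TTTCGCGC for E2F, TTTGAA and TTCGAA for the CHR, and CCAAT for the CCAAT box. TTCGAA reads the same on both strands, and E2F matches on opposite strands can overlap, as they do in Mcm6 and Mcm5. The window ran from 250 bases before to 50 bases after the start, and 29 of the 36 members had an entry. A CHR stood in 13 of the 17 mitosis promoters matched and in 2 of the 10 S phase promoters (Mcm2 and Mcm7), against 19.2% of 32851 promoters. Every one of the 13 mitosis promoters also held CCAAT, a pair found in 7.52% of all promoters. CCAAT alone did not separate the lists: it stood in 15 of the 17 mitosis and 8 of the 10 S phase promoters, against 37.4% of all. E2F letters stood in 4 of the 10 S phase promoters (Mcm3, Mcm5, Mcm6 and Mcm7), in 1 of the 17 mitosis promoters (Cdk1) and in 2.26% of all. Ube2c held its CHR at position -29 from the start and Cdk1 held CHR letters at -71 and -15. These matches describe letters, not bound sites.

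The libraries held 15996 barcodes and 72270260 UMIs (aWT) and 11045 barcodes and 75950364 UMIs (aKO), and shared 48 barcodes by sequence, 1 of them in an aKO cell rich in mitosis transcripts. After filtering and removal of called doublets, 14604 cells of aWT and 10296 of aKO met the marker rule for endothelial-like cells, with medians of 3901 and 5763.5 UMIs. Levels are given as CPM, the UMIs of a gene per 1000000 UMIs of the cells compared. Acvrl1 stood at 1020 (aWT) and 487 CPM (aKO), which does not check the label, since a 3' count can come from outside a deletion. Xist stood at 3.66 and 730 CPM, so sex and group cannot be told apart. With 1 library per group no difference between groups was tested, and each interval below is a 95% interval for counting error only. Fewer expressing cells and less RNA per cell cannot be told apart from a CPM alone, so the number of cells behind it is given where it matters.

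The mitosis genes were higher in aKO. Their UMIs together made up 69.1 CPM (67.1 to 71.2, exact Poisson) in aWT and 263 CPM (259 to 267) in aKO, or 1.93 as a log2 ratio (1.88 to 1.98). The 12 S phase genes together had 158 (aWT) and 234 CPM (aKO), a smaller log2 ratio of 0.57 (0.53 to 0.60). The 4 entry and restraint genes, dominated by Cdkn1a and Ccnd1, summed to 639 and 651 CPM. Single genes were compared as log2 of (aKO CPM + 5) over (aWT CPM + 5), which understates the change of low genes. A gene was counted as higher or lower at 1.5-fold where its mean over both libraries reached 5 CPM. A gene low in 1 library could reach this minimum through the other, as Birc5 did at 2.62 CPM (aWT) and 17.9 CPM (aKO). The minimum thus favoured calls in genes that differ between the libraries. Of the 27 members that reached it, 16 were higher and 2 lower in aKO, beside 11.4% higher and 6.14% lower of all 10762 genes that reached it. The median log2 ratio was 0.74 over all 36 members and 0.09 over all genes that reached the minimum. The 9 members under the minimum were Ccnb1, Ccna2, Bub1, Bub1b, Aurka, Aurkb, Plk1, Kif11 and Ccne1, and each of them had a higher CPM in aKO.

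**Figure D1:**
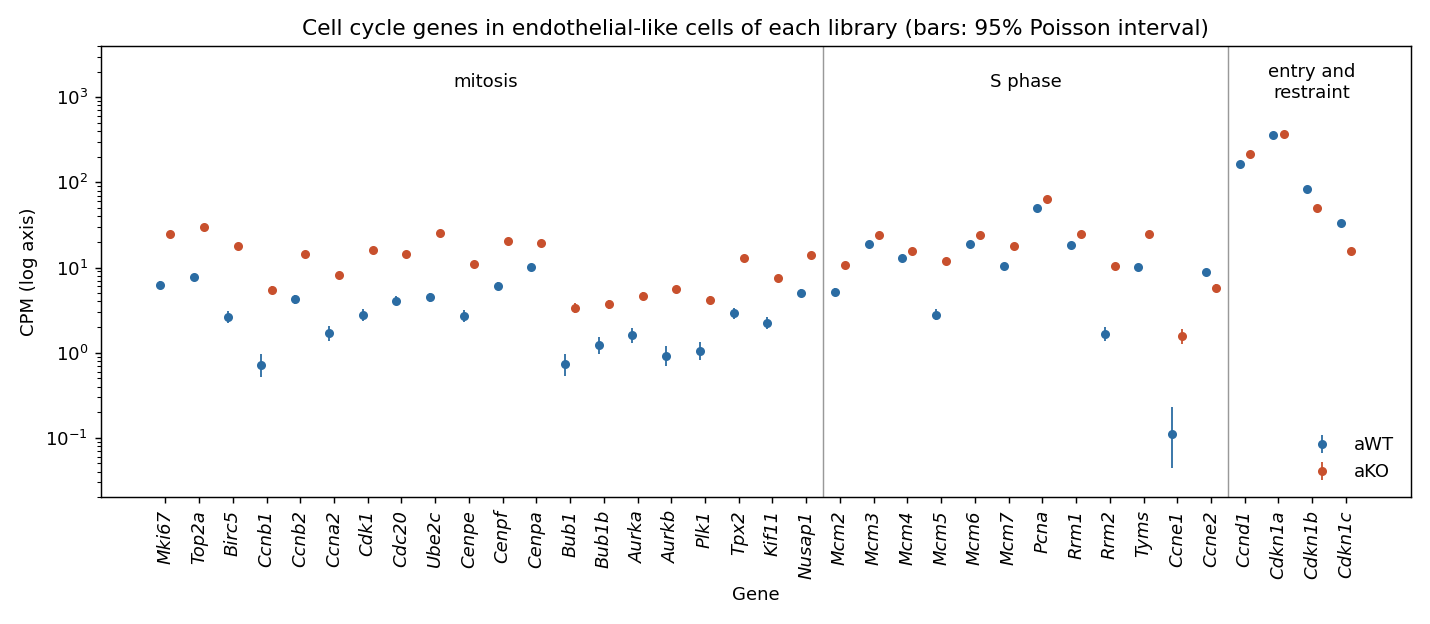
Level of each of the 36 genes in endothelial-like cells, in CPM on a log axis, with 95% Poisson intervals (blue aWT, orange aKO, 1 library each). All 20 mitosis genes lie higher in aKO, among them Ube2c at 4.47 and 25.3 CPM and Cenpa at 10.1 and 19.3 CPM (lower in aKO, at 7.89 and 6.31 CPM, without mitosis-high cells), while Cdkn1b, Cdkn1c and Ccne2 lie lower.

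Among the mitosis genes, the ubiquitin-conjugating enzyme Ube2c (chromosome 2, 164769898 to 164778822, plus strand, GRCm38), which works with the anaphase-promoting complex, went from 4.47 CPM (3.97 to 5.03) to 25.3 CPM (24.1 to 26.5), a log2 ratio of 1.68. Birc5, the survivin subunit of the chromosomal passenger complex, stood at 2.62 and 17.9 CPM (1.59). Top2a, the topoisomerase that untangles sister chromatids, stood at 7.65 and 30.3 CPM (1.48). These 3 had the highest ratios of the list. The mitotic kinase Cdk1 stood at 2.78 and 16.1 CPM (1.44), and its cyclin partner Ccnb2 at 4.25 and 14.3 CPM (1.06). Mki67, the proliferation marker Ki-67 that coats mitotic chromosomes, stood at 6.30 CPM (5.69 to 6.95) and 24.6 CPM (23.5 to 25.8), with UMIs in 86 of 14604 aWT and 246 of 10296 aKO cells. The lowest ratio among mitosis genes that reached the minimum was that of the centromeric histone Cenpa, at 10.1 and 19.3 CPM (0.69). This direction rested on the mitosis-high cells defined below: in all other cells Cenpa stood at 7.89 CPM (7.21 to 8.62) in aWT and 6.31 CPM (5.73 to 6.94) in aKO, log2 -0.19. Cenpa was also the most widely detected gene of the list in aWT, with a UMI in 474 cells, against 42 cells for Birc5.

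Among the S phase genes, 4 of the 11 that reached the minimum were higher and none was lower. Rrm2, the regulated subunit of ribonucleotide reductase, stood at 1.67 and 10.3 CPM (1.20). Mcm5, a subunit of the replicative helicase, stood at 2.79 and 12.1 CPM (1.13), and its partner Mcm2 at 5.14 and 10.7 CPM (0.63). Tyms, which makes thymidylate, stood at 10.3 and 24.5 CPM (0.95). The other helicase subunits Mcm3, Mcm4, Mcm6 and Mcm7 had ratios of 0.22 to 0.57. The sliding clamp Pcna was within 1.5-fold, at 50.4 CPM (48.7 to 52.2) and 63.2 CPM (61.4 to 65.1), and so was Rrm1, the other reductase subunit, at 18.2 and 24.6 CPM. The E-type cyclins, which start replication, differed in direction: Ccne1 had 7 UMIs in aWT and 109 in aKO, and Ccne2 stood at 8.87 and 5.78 CPM (-0.36).

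Most mitosis UMIs came from few cells. To compare cells at equal depth, each cell was thinned to 2000 UMIs, and a cell was called mitosis-high if it kept at least 3 UMIs from at least 3 of the 20 mitosis genes. This left 12376 aWT and 8928 aKO cells, without 2228 and 1368 shallower cells. There were 23 mitosis-high cells in aWT, 0.186% (0.118 to 0.279, exact Clopper-Pearson), and 125 in aKO, 1.40% (1.17 to 1.67). The intervals did not overlap, but they cover the counting of cells within 1 library each and not variation between animals. Without thinning, over all endothelial-like cells, the shares were 0.233% and 2.09%. Nearly all cells were far from this limit: 11802 aWT and 8265 aKO cells kept no mitosis UMI, 525 and 489 kept 1, and 24 and 40 kept 2. Just above the limit, with 3 or 4 UMIs, lay none of the 23 aWT and 20 of the 125 aKO cells, while 22 and 73 kept 10 or more. In full depth the mitosis-high cells held a median of 96 (aWT) and 86 (aKO) mitosis UMIs, up to 368 and 622.

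**Figure D2:**
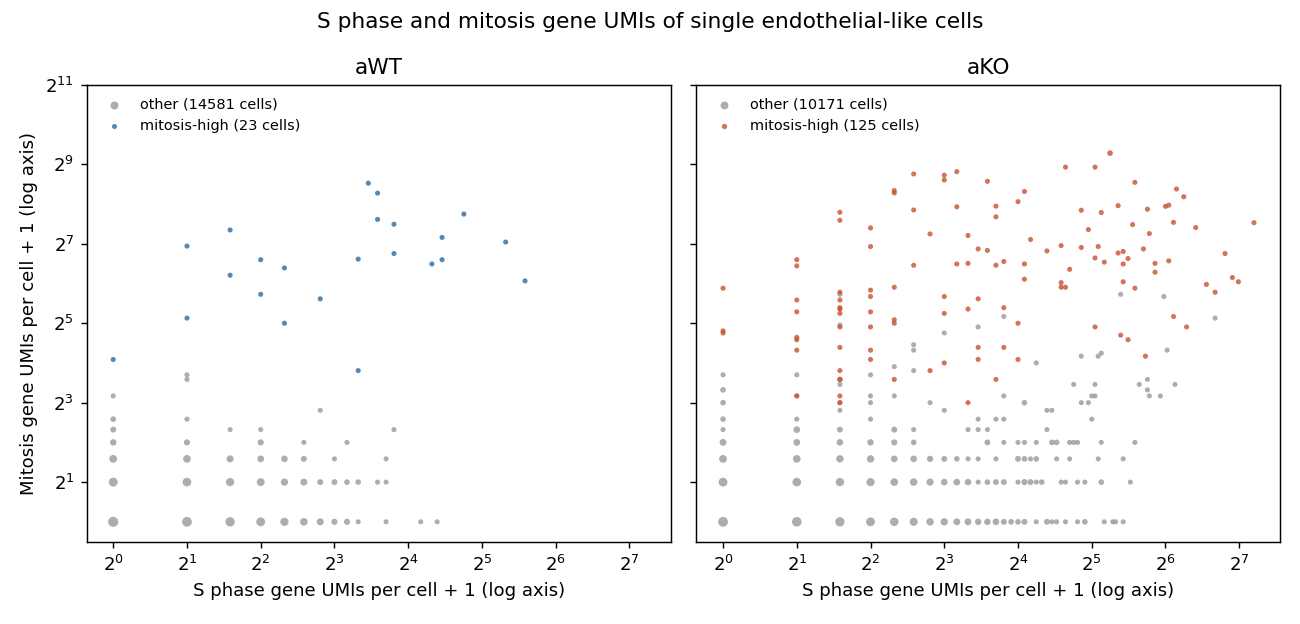
Each point is 1 or more endothelial-like cells at full depth, placed by its UMIs of the 12 S phase genes (x) and of the 20 mitosis genes (y), both plus 1 on log axes; grey points grow with the number of cells and include cells too shallow to be thinned. The 23 aWT and 125 aKO mitosis-high cells form the upper cloud, spread over a wide range of S phase UMIs.

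The mitosis-high cells held 62.5% of all mitosis UMIs in aWT and 85.2% in aKO, from 0.458% and 3.39% of all UMIs. With them left out, the mitosis genes summed to 26.1 and 40.3 CPM, a log2 ratio of 0.63 (0.54 to 0.72). Then 2 members (Mcm5 and Tyms) were at least 1.5-fold higher in place of 16. All mitosis genes but Cenpa lay under the 5 CPM minimum in the other cells, for example Mki67 at 1.23 (aWT) and 3.07 CPM (aKO). They could not be called there, so the fall in this number was partly set by the minimum. Cenpa (log2 -0.19) then had the opposite sign, and Nusap1, a spindle protein, stood at 3.04 and 3.01 CPM. In mitosis-high cells all 20 mitosis genes and all 12 S phase genes were at least 1.5-fold above the other cells of the same library. For the mitosis genes this is what the call itself fixes. Ccnb1, the cyclin that triggers entry into mitosis, had 93.3% of its UMIs there in aWT and 96.6% in aKO. Cenpa had 22.1% there in aWT and 68.4% in aKO. Mitosis-high cells were deeper than the rest, with median UMIs of 12192 against 4278 in aWT and 16889 against 6357 in aKO. Their median doublet scores were 0.130 and 0.130, against 0.119 (aWT) and 0.0617 (aKO) in other cells, and immune marker UMIs were present in 0 of 23 and 2 of 125 of them. Epithelial markers were present in 2 and 6 of them, and fibroblast or pericyte markers in 5 and 27. Other thinning depths and a stricter doublet removal were run as alternatives and moved the aKO share, as given in the section on processing below. The part of depth and doublets in the calls was not tested beyond these.

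Outside all the lists used here, the 6 genes with the highest fold in mitosis-high over other cells, taking the lower fold of the libraries, were Hist1h2ap, Knl1, Hist1h2ae, Diaph3, Neil3 and Cep55. Knl1, the kinetochore scaffold, stood at 364 against 0.494 CPM in aWT and 251 against 1.26 CPM in aKO, a fold of 67.2 and 40.9 after adding 5 CPM. Cep55, which acts when daughter cells separate, had folds of 33.5 and 32.9. The DNA glycosylase Neil3 had folds of 67.1 and 36.1. The replication-dependent histone genes Hist1h2ap and Hist1h2ae had folds of at least 38.8 in both libraries, but reads of such near-identical copies may be split between genes.

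S phase and mitosis genes were distributed differently over the cells. The mitosis-high cells held 2.76% of the S phase UMIs in aWT and 19.0% in aKO, so most S phase UMIs lay in cells with little or no mitosis signal. Pcna, for example, had a UMI in 17.7% of other aWT cells and 26.1% of other aKO cells, at 50.1 and 58.0 CPM. Rrm2 and Ccne1 differed from the rest of their list. Rrm2 had 63.8% (aWT) and 77.2% (aKO) of its UMIs in mitosis-high cells. Ccne1 had 57.1% of its 7 UMIs there in aWT and 62.4% of its 109 UMIs in aKO. Over all endothelial-like cells there were 2.29 S phase UMIs per mitosis UMI in aWT (2.21 to 2.37) and 0.890 in aKO (0.872 to 0.909). Within mitosis-high cells the order was the opposite, with 0.101 (0.0889 to 0.114) in aWT and 0.199 (0.191 to 0.207) in aKO. Among the 12 S phase genes, those with the largest gap between the libraries' mitosis-high cells were Mcm5, at 27.7 CPM (12.0 to 54.6, 8 UMIs) and 76.9 CPM (66.1 to 88.9), and Ccne2, at 20.8 CPM (7.63 to 45.3, 6 UMIs) and 56.2 CPM (47.0 to 66.6). In the other cells Ccne2 went the other way, from 8.81 CPM in aWT to 4.02 CPM in aKO.

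By the same rule over the 12 S phase genes, 61 aWT cells (0.493%, 0.377 to 0.633) and 122 aKO cells (1.37%, 1.14 to 1.63) were S-high. Of these, 7 and 43 were also mitosis-high. This limit was less clear: 430 aWT and 360 aKO cells kept 2 S phase UMIs, and 52 of 61 and 70 of 122 S-high cells kept only 3 or 4. S-high cells were found in general capillary cells too (26 of 6132 in aWT and 3 of 2022 in aKO), where no cell was mitosis-high. In aKO, 62 of the 122 S-high cells were venous, out of 1068 venous cells (5.81%, 4.48 to 7.38). In aWT 10 of 1353 venous cells were S-high (0.739%, 0.355 to 1.36). The other subclasses of aKO, and its unresolved cells, had S-high shares from 0.148% to 1.26%.

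The position of the mitosis-high cells in the vessel tree was read from marker genes. Each endothelial-like cell was given to the subclass whose markers scored highest, or left unresolved where scores were close. The cells numbered 6865 in aWT and 2233 in aKO for general capillary, 2463 and 1202 for aerocyte (the large alveolar capillary cell), 1445 and 1357 for arterial, 1568 and 1142 for venous, 555 and 1886 for lymphatic, and 1708 and 2476 for unresolved. No subclass had a marker of another among its 10 leading genes, and 2 to 6 of its own were among them. The scoring rule itself favours this, so it is no check of the subclasses. General capillary cells of aKO held a median of 27.0 lymphatic marker UMIs per 10000 UMIs, against 5.16 in aWT. The score is continuous: 473 of the 2233 aKO general capillary cells and 69 of the 1142 aKO venous cells lay within 0.1 of the limit.

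Venous-like cells held most of the mitosis-high aKO cells. In aKO, 73 of 1068 thinned venous cells were mitosis-high (6.84%, 5.40 to 8.52), and in aWT 8 of 1353 (0.591%, 0.256 to 1.16). Arterial cells followed, with 25 of 1272 in aKO (1.97%, 1.28 to 2.89) and 4 of 1236 in aWT (0.324%, 0.0882 to 0.827). In both subclasses the intervals of the libraries did not overlap, which again covers counting error only and is no test between groups. Lymphatic cells had the other order, with 6 of 1657 in aKO (0.362%, 0.133 to 0.787) and 4 of 431 in aWT (0.928%, 0.253 to 2.36), and their intervals overlapped. Aerocytes had 2 of 1067 and 1 of 2152. General capillary cells had 0 of 2022 in aKO and 0 of 6132 in aWT, which at 3 counts of the total allows shares of up to 0.148% and 0.0489% (exact upper bounds of the interval 0.182% and 0.0601%). Unresolved cells had 19 in aKO (1.03%) and 6 in aWT (0.560%). Cells outside the endothelial-like rule had 0 of 49 in aKO and 0 of 175 in aWT (exact upper bounds 7.25% and 2.09%). Those that met the epithelial rule had 0 of 25 and 0 of 153 (upper bounds 13.7% and 2.38%), at medians of 16532 and 13686 UMIs. These bounds lie above the shares of all endothelial-like cells (1.40% and 0.186%), so the zeros do not show a lower share.

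**Figure D3:**
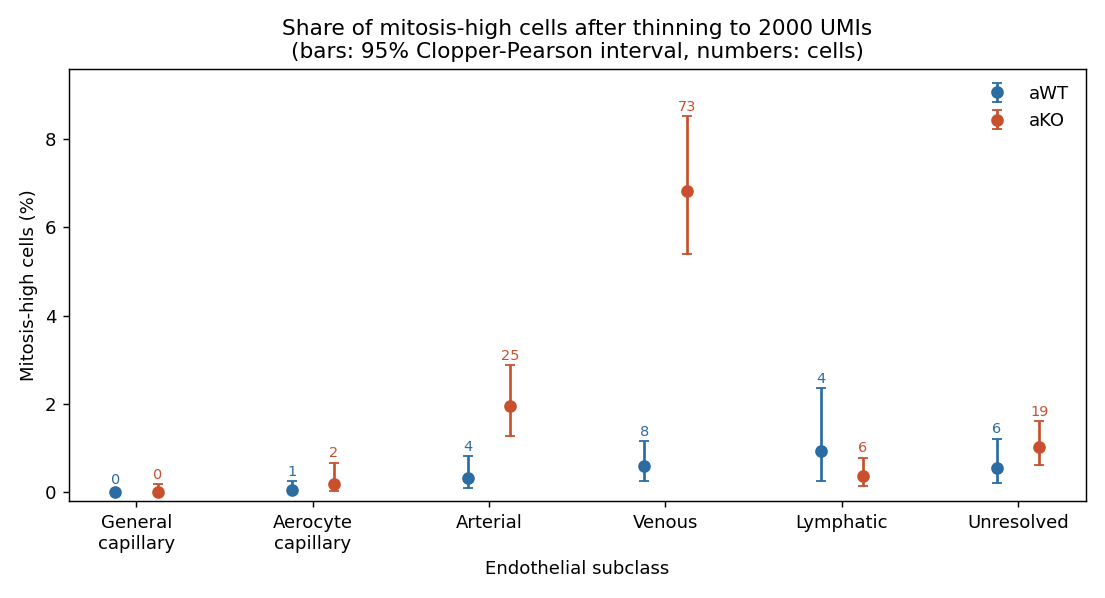
Share of cells called mitosis-high at 2000 UMIs per cell in each subclass (y, percent), with exact 95% binomial intervals and the number of mitosis-high cells above each point (1 library per group). Venous aKO cells stand at 6.84% and arterial aKO cells at 1.97%, and general capillary cells at 0 in both libraries.

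Venous cells were 12.0% of thinned aKO cells and 58.4% of the mitosis-high ones (49.2 to 67.1). In aWT they were 10.9% and 34.8% (16.4 to 57.3). With the aWT makeup, the aKO subclass shares gave an overall 1.08% in place of 1.40%, and with the aKO makeup, the aWT shares gave 0.410% in place of 0.186%. The sort and the dissociation can also set the makeup, and this was not tested.

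Within venous cells all 20 mitosis genes reached the minimum and all 20 were higher in aKO. Of the 11 S phase genes that reached it, 10 were higher, and 1 member (Cdkn1b) was lower. Some of these genes reached the minimum only through aKO, among them Ccnb1 at 0.692 (aWT) and 16.7 CPM (aKO) and Bub1b at 1.96 and 12.2 CPM. Over all members, 31 of 34 were higher, beside 14.3% higher and 8.98% lower of all genes tested in that subclass. The mitosis genes summed to 121 (aWT) and 849 CPM (aKO; log2 2.81, 2.72 to 2.91), and the S phase genes to 170 and 433 CPM (log2 1.35, 1.26 to 1.43). Birc5 had the highest ratio, from 5.53 CPM (4.08 to 7.34) to 62.8 CPM (58.5 to 67.3), log2 2.69. Ube2c followed at 9.91 and 83.9 CPM (2.57), then Mki67 at 10.1 and 82.8 CPM (2.54). Aurkb, the kinase of the chromosomal passenger complex, stood at 2.19 and 19.9 CPM (1.79), and the mitotic kinase Plk1 at 2.30 and 13.4 CPM (1.33). Kif11, the motor that separates spindle poles, stood at 5.30 and 23.7 CPM (1.48). Bub1, a spindle checkpoint kinase, had the lowest ratio of the mitosis list, at 2.65 and 11.2 CPM (1.09). Among S phase genes Rrm2 (4.96 and 37.8 CPM, 2.10) and Mcm5 (5.07 and 30.2 CPM, 1.80) led. Pcna stood at 43.5 CPM (39.2 to 48.1) and 90.3 CPM (85.2 to 95.7), log2 0.98, whereas its ratio in the other 4 subclasses lay between -0.23 and 0.30.

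With the mitosis-high cells left out, the venous ratios were 1.36 (1.17 to 1.56) for the mitosis genes, at 33.0 and 85.1 CPM, and 1.04 (0.94 to 1.13) for the S phase genes, at 153 and 314 CPM. Venous aKO cells were also deeper, with a median of 9612 UMIs against 5172 in aWT, and the CPM are scaled to that total. In the 73 mitosis-high venous aKO cells 11 of the 12 venous markers were present at levels lower than or similar to those of the other 1069 venous aKO cells. The same 12 markers set the subclass, so their presence is no check of it. Vwf, the clotting factor carrier von Willebrand factor, stood at 1084 and 2177 CPM, Prss23 at 628 and 1194 CPM, the noradrenaline transporter Slc6a2 at 91.1 and 373 CPM, and Csrp2 at 715 and 711 CPM. The adhesion molecule Vcam1 was above the other cells, at 1389 CPM (1329 to 1451) against 791 CPM (775 to 807). Slc6a2 stood at 2157 CPM in the other venous cells of aWT, so its level also differed between the libraries.

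Within arterial cells, 11 of the 12 mitosis genes that reached the minimum were higher in aKO and none lower, and of the 26 members that reached it 14 were higher and 2 lower, beside 9.89% higher and 8.03% lower of all genes. The mitosis genes summed to 74.3 and 272 CPM (log2 1.87, 1.74 to 2.01). Without the 4 and 25 mitosis-high cells, the sum was 25.6 and 31.2 CPM (log2 0.28, 0.03 to 0.54). In the 25 mitosis-high aKO cells most arterial markers, which also set the subclass, stood below the other arterial aKO cells. Among them were Mgp (946 and 2535 CPM), Efnb2 (258 and 450 CPM) and Bmx (77.7 and 233 CPM). Dkk2 and Htra1 were similar, and Fbln2 stood above the other cells (603 and 453 CPM). Ube2c had the highest arterial ratio, at 2.48 CPM (1.47 to 3.92) and 33.7 CPM (30.6 to 37.1), log2 2.37. The S phase genes had a log2 ratio of 0.40, and Mcm5 (1.79 and 10.7 CPM, 1.21) and Mcm7 (9.51 and 17.2 CPM, 0.61) were higher.

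Lymphatic cells went the other way for mitosis genes. Of the 14 mitosis genes that reached the minimum 11 were lower in aKO and none was higher, beside 4.98% lower and 5.01% higher of all genes. The sum stood at 276 CPM (257 to 296) in aWT and 75.5 CPM (71.0 to 80.3) in aKO, log2 -1.87. Of the 770 mitosis UMIs in aWT lymphatic cells, 661 came from 4 cells. Without mitosis-high cells the sums were 40.2 and 38.9 CPM, a log2 ratio of -0.05 (-0.35 to 0.26). Cenpf, a kinetochore protein, had the lowest ratio, at 38.8 CPM from 108 UMIs in aWT and 2.81 CPM in aKO (-2.49). The S phase genes did not share this direction: 3 of the 10 that reached the minimum were higher (Mcm2, Mcm5 and Tyms) and none was lower. Tyms stood at 28.7 CPM (22.8 to 35.7) and 47.3 CPM (43.7 to 51.1).

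Capillary cells showed little mitosis signal in either library. In general capillary cells the 20 genes summed to 23.7 (aWT) and 25.1 CPM (aKO; log2 0.08, -0.12 to 0.28), and Cenpa alone reached the minimum, at 6.92 and 4.61 CPM. The S phase genes summed to 152 and 132 CPM (log2 -0.20, -0.29 to -0.12), and 1 of the 9 that reached the minimum, Ccne2, was lower (10.5 and 3.24 CPM, -0.91), beside 5.48% lower and 7.63% higher of all genes. In aerocytes the mitosis sum was 32.3 and 54.2 CPM (log2 0.75), and without 1 and 2 mitosis-high cells it was 24.6 and 30.0 CPM (log2 0.29, 0.02 to 0.55). In aerocytes 1 of 13 members was higher (Cdkn1c) and 1 lower (Cdkn1b), beside 6.04% and 4.24% of all genes. Unresolved cells had sums of 182 and 207 CPM (log2 0.18), with 4 of 28 members higher and 1 lower, beside 10.2% and 7.81%.

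**Figure D4:**
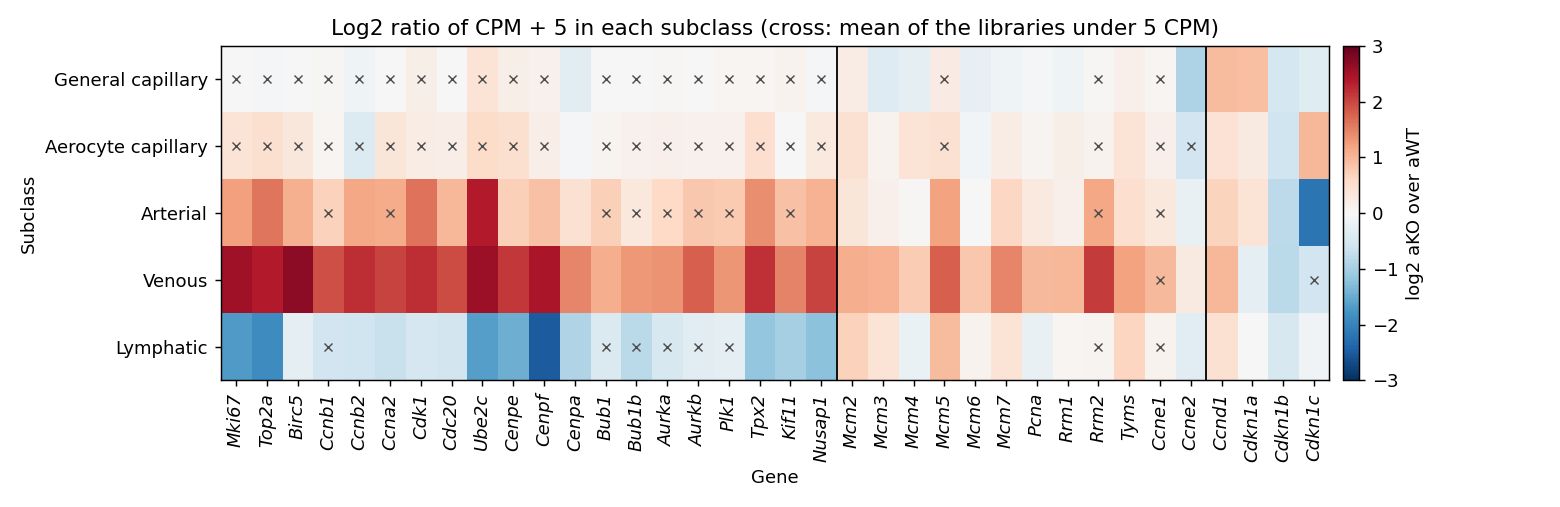
Log2 ratio of (aKO CPM + 5) over (aWT CPM + 5) for each of the 36 genes (columns) in 5 subclasses (rows), red higher and blue lower in aKO; crosses mark genes whose mean lay under 5 CPM in that subclass. Mitosis genes are red in venous cells (1.09 to 2.69), red in arterial cells and blue in lymphatic cells, where 4 cells carried most of the aWT signal.

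The ratio of S phase to mitosis UMIs followed the same division of subclasses. Venous cells had 1.41 S phase UMIs per mitosis UMI in aWT and 0.510 in aKO, and arterial cells 2.16 and 0.776. Lymphatic cells had 0.797 (0.716 to 0.888) and 3.32 (3.10 to 3.56). General capillary cells, with no mitosis-high cell, had 6.41 (5.90 to 6.97) and 5.27 (4.66 to 5.97). Within mitosis-high venous cells alone the ratio was 0.209 (0.176 to 0.249) in aWT and 0.1999 (0.190 to 0.210) in aKO, with overlapping intervals, whereas for arterial cells it was 0.0537 (from 4 cells) and 0.179.

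The 4 entry and restraint genes differed in direction among themselves and between subclasses. Ccnd1, cyclin D1, which couples growth signals to the cycle, had a higher CPM in aKO in all 5 subclasses and was called higher in 3. In general capillary cells it stood at 147 and 288 CPM (log2 0.95), in venous cells at 88.3 CPM (82.2 to 94.8) and 180 CPM (173 to 188), log2 0.99, and in arterial cells at 70.9 and 115 CPM (0.66). In aerocytes it stood at 346 and 468 CPM (0.43) and in lymphatic cells at 97.2 and 136 CPM (0.46). Pooled over subclasses, Ccnd1 was lower in mitosis-high than in other cells of each library, at 104 CPM (70.2 to 149) against 163 CPM in aWT and 139 CPM (125 to 155) against 216 CPM in aKO. Inside aKO subclasses it was lower in mitosis-high venous cells (142 against 185 CPM) and arterial cells (68.6 against 117 CPM), but higher in the 6 mitosis-high lymphatic cells, at 268 CPM (197 to 356) against 134 CPM. In aWT arterial cells it stood at 128 CPM from 5 UMIs against 70.5 CPM.

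Cdkn1a, the inhibitor p21 that p53 induces, had nearly equal totals (360 and 372 CPM, log2 0.05) made of unequal subclasses. In general capillary cells it stood at 250 and 473 CPM (0.90) and in venous cells at 241 CPM (231 to 252) and 196 CPM (188 to 203), log2 -0.30. It was at its highest in aerocytes of both libraries, at 935 and 1126 CPM, and at its lowest in lymphatic cells, at 105 and 107 CPM. In arterial cells it stood at 196 and 264 CPM. Mitosis-high cells had 406 CPM (336 to 486) against 359 CPM in other aWT cells, and 213 CPM (195 to 233) against 378 CPM in other aKO cells. Within aKO venous cells alone Cdkn1a stood at 197 CPM in mitosis-high and 195 CPM in other cells, so the gap in aKO was not present inside that subclass. In aWT venous cells it stood at 506 CPM (363 to 687, 8 cells) in mitosis-high and 239 CPM in other cells. In aWT lymphatic cells the levels were 245 CPM (147 to 382, 4 cells) and 101 CPM. The order was the opposite in aWT arterial cells, at 25.7 CPM from 1 UMI and 197 CPM.

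Cdkn1b, the inhibitor p27 of quiescent cells, was lower in aKO over all cells, at 83.6 CPM (81.4 to 85.9) and 49.8 CPM (48.2 to 51.5), log2 -0.69. It had a lower CPM in aKO in all 5 subclasses, with ratios from -0.82 in venous cells (59.9 and 31.8 CPM) to -0.49 in lymphatic cells (79.3 and 55.1 CPM), and was called lower in 3. Venous cells had the lowest Cdkn1b level of the 5 subclasses in both libraries. Mitosis-high and other cells had 118 CPM (81.6 to 165) and 83.4 CPM in aWT, and 49.8 CPM each in aKO. Inside aKO subclasses the intervals of mitosis-high and other cells were apart in arterial cells and overlapped in venous and lymphatic cells. In aKO arterial cells the levels were 68.6 CPM (46.3 to 97.9) in mitosis-high and 41.8 CPM (38.2 to 45.6) in other cells. In aKO venous cells they were 40.7 CPM (31.0 to 52.5) and 30.7 CPM (27.5 to 34.1). The order was the opposite in aKO lymphatic cells, at 34.2 CPM from 6 UMIs (12.5 to 74.4) and 55.3 CPM.

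Cdkn1c, the inhibitor p57, was lower in aKO over all cells, at 33.7 and 15.7 CPM (log2 -0.91). Arterial cells held 1596 of its 2127 aWT UMIs, at 220 CPM (209 to 231), and stood at 44.2 CPM (40.6 to 48.1) in aKO, log2 -2.19. Aerocytes went the other way, at 3.66 and 12.2 CPM (0.99). In arterial aKO cells Cdkn1c stood at 128 CPM in the 25 mitosis-high cells and 41.2 CPM in the others. Over all aKO mitosis-high cells its 63 UMIs lay in 8.80% of the cells.

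**Figure D5:**
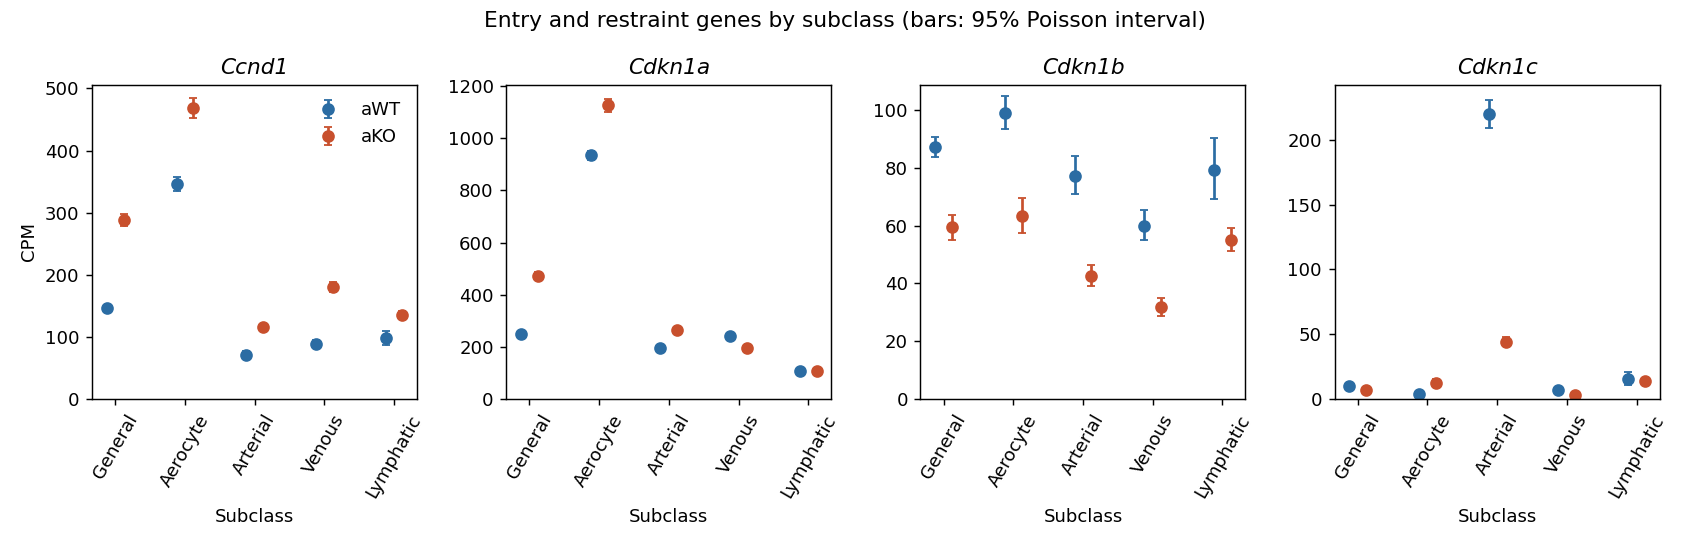
Level of the 4 entry and restraint genes in 5 subclasses, in CPM from 0, with 95% Poisson intervals (blue aWT, orange aKO, 1 library each; the y axes differ). Cdkn1b is lower in aKO in all 5 subclasses, Cdkn1c is at 220 and 44.2 CPM in arterial cells, and Cdkn1a is highest in aerocytes.

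Other genes of the same pathways were given by 3 further lists. Of 25 other replication genes 13 reached the minimum, and 4 were higher and none lower in aKO, beside 11.4% higher and 6.14% lower of all genes, with a median log2 ratio of 0.51 over all 25. The highest were Gmnn, the inhibitor of repeated origin licensing (7.69 and 16.04 CPM, 0.73), and Rpa2, of the single-strand binding complex (9.85 and 18.1 CPM, 0.64). The lowest were Orc6, of the origin recognition complex (54.7 and 36.5 CPM, -0.53), and Pola1, of the priming polymerase (33.0 and 34.5 CPM, 0.06). Of 40 other mitosis genes 21 reached the minimum, and 16 were higher and 1 lower, beside the same 11.4% and 6.14% (median 0.65 over all 40). Cks1b (3.03 and 16.2 CPM, 1.40) and Cks2 (6.54 and 21.9 CPM, 1.22), the small subunits of cyclin-dependent kinases, were highest. Spc25, a kinetochore subunit, was lower (15.5 and 7.75 CPM, -0.69), and Pttg1, the securin that guards sister chromatids, stood at 100 and 75.3 CPM (-0.39).

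Of 25 other entry and restraint genes all reached the minimum, with none higher and 3 lower in aKO, beside 11.4% and 6.14% of all genes. With 3 genes called, no direction is read from this list. The highest were the stress-response gene Gadd45a (9.65 and 16.2 CPM, 0.53) and the cyclin D partner Cdk4 (50.9 and 73.3 CPM, 0.49). The lowest were the retinoblastoma gene Rb1, which restrains E2F (214 and 126 CPM, -0.75), and Gadd45b (41.1 and 23.3 CPM, -0.70). Within venous cells 18 of 21 other replication genes and 35 of 37 other mitosis genes were higher, with 1 and 0 lower, beside 14.3% higher and 8.98% lower of all genes. Of 23 other entry and restraint genes there, 4 were higher and 3 lower, which is near those shares. In lymphatic cells 1 of 22 other mitosis genes was higher and 11 were lower, beside 5.01% and 4.98%. Their summed log2 ratio was -0.56 there, and -0.03 without mitosis-high cells. In general capillary cells 0 of 8 were higher and 1 was lower, beside 7.63% and 5.48%.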

How the data were processed

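For each library the authors deposited a matrix of raw UMI counts, without normalization. The submitters' processing notes list Cell Ranger 7.2.0 and the mm10 build. The annotation release and the handling of introns were not given in the sources used here. Groups came from the sample titles, and p-values were not computed because each group has 1 library. Cells needed 500 genes or more and no more than 15% mitochondrial UMIs. Scrublet, applied to each library in scanpy 1.11.5 (Python 3.11.15, numpy 2.4.6, scipy 1.17.1), called 5.03% of aWT and 3.43% of aKO barcodes doublets. These were dropped; the loading would give about 12.5% and 8.63%.

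A cell was endothelial-like with at least 3 UMIs from at least 2 pan-endothelial markers and fewer UMIs of other cell types' markers. Subclass scores were the mean over a class's markers of the standardized log of UMIs per 10000, and the highest won if it led by 0.2. Markers were fixed, but this scoring was set after the data had been seen. Counts were summed per library and class and scaled to 1000000 (CPM). Log2 ratios used 5 CPM added to each library, a minimum mean of 5 CPM and a 1.5-fold limit. CPM have exact Poisson, list ratios exact conditional and shares exact Clopper-Pearson intervals, for counting error only. Cells were thinned to 2000 UMIs with a fixed seed. The 1.5-fold rule was run on simulated counts of 10771 genes for aKO against aWT endothelial-like cells. It recovered 46 of 50 genes raised 2-fold, 46 of 50 lowered 2-fold, and all 50 raised and all 50 lowered 3-fold. Of 10571 unchanged genes it called 0. The simulated counts held Poisson error only, so this number says nothing about false calls from variation between animals or libraries.

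The members, the lists and the tests were chosen with earlier results of these data known. All members could be named, with the 2 highest and 2 lowest ratios among the tested genes of each other list and the 6 leading genes outside them; marker genes and library checks were also named. Gene positions came from GENCODE M21 (GRCm38) by identifier, and promoters from RefSeq on GRCm38.p6. Alternatives used TMM factors of edgeR 4.0.16, other filters, doublet rates, limits, thinning depths and weights. Leaving out venous or mitosis-high cells from the sums over all endothelial-like cells, and weighting by the aWT makeup, were added after seeing the data.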

Additional observations from a re-analysis of the deposited data

Results flagged for a closer look

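In 11 mitosis genes the log2 ratios of aKO over aWT had opposite signs and passed 1.5-fold in venous and in lymphatic cells, and the difference was not tested, since each group is 1 library. Ube2c stood at 2.57 in venous against -1.66 in lymphatic cells, Mki67 at 2.54 against -1.69, Cenpf at 2.44 against -2.49 and Top2a at 2.39 against -1.89. Ccnb2 stood at 2.21 against -0.61, Tpx2, a spindle assembly factor, at 2.20 against -1.15, and Cenpe, a kinetochore motor, at 2.13 against -1.47. Ccna2, cyclin A, stood at 2.02 against -0.67, Nusap1, a spindle protein, at 2.02 against -1.22, Kif11 at 1.48 against -0.99 and Cenpa at 1.47 against -0.91. Of the 770 mitosis UMIs in aWT lymphatic cells, 661 came from 4 cells, and without mitosis-high cells the summed lymphatic ratio was -0.05.

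Cdkn1c stood at 0.99 in aerocytes against -2.19 in arterial cells, which was likewise not tested.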

How the results depend on the processing

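No paired analysis was possible because each group has 1 library. Of the 36 members, Cenpa (-0.19) and Nusap1 (-0.0064) turned sign over all endothelial-like cells when mitosis-high cells were left out. No summed mitosis or S phase ratio, over all endothelial-like cells or in the 5 named subclasses, changed sign under the alternatives run. All 23 members with a ratio past 1.5-fold (without the minimum) kept their sign under the other 12 alternatives run for single members, and 11 also stayed past 1.5-fold in each. Leaving out mitosis-high cells moved the summed mitosis ratio the most. Over all endothelial-like cells 2 members were then higher, with all mitosis genes but Cenpa under the minimum. The log2 ratio became 0.63 for mitosis and 0.35 for S phase genes there. It became 1.36 (mitosis) and 1.04 (S phase) in venous, 0.28 and 0.13 in arterial, -0.0475 (mitosis) in lymphatic and 0.29 (mitosis) in aerocyte cells. Without venous cells the ratios were 1.13 and 0.28. With subclasses weighted equally they were 1.27 and 0.50, and S phase UMIs per mitosis UMI were 1.60 (aWT) and 0.934 (aKO). As a mean over cells, which weights shallow cells as much as deep ones, they were 1.49 and 0.28 over all cells, 2.63 and 1.11 in venous, 1.503 and 0.26 in arterial, -0.99 and 0.0407 in lymphatic and 0.38 (mitosis) in aerocyte cells; 6 members were higher, and S phase UMIs per mitosis UMI were 3.67 and 1.58. With doublets removed at 0.8% per 1000 cells, the mitosis ratio was 1.76 over all cells, 0.28 for aerocytes, 2.28 for arterial cells, 2.55 for venous cells and -2.63 for lymphatic cells, the arterial S phase ratio was 0.30, the aKO mitosis-high share 1.05% and the aKO S phase UMIs per mitosis UMI 0.993. With doublet calls kept, the last measure was 2.42 (aWT) and 0.931 (aKO). A wider margin between subclasses gave an arterial mitosis ratio of 2.43. With a minimum of 20 CPM 0 members were counted as higher, since few members reach it. The mitosis-high share was 0.283% (aWT) and 1.83% (aKO) at 2 UMIs from 2 genes; in aKO it was 2.09% without thinning, 0.983% at 1000 UMIs and 1.08% with the aWT makeup. The S-high share was 3.28% and 4.85% at 2 UMIs from 2 genes, 0.0727% and 0.582% at 5 UMIs, 3.12% and 9.47% without thinning, and 0.0780% and 0.461% at 1000 UMIs, so its level rests on the limit chosen. Other causes were not tested. Depth limits the members under 5 CPM and every subclass with fewer than 10 mitosis-high cells.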

Other observations

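Among the other entry and restraint genes, 4 are named here because of their values. The kinase inhibitors Cdkn2a (p16 and p19Arf) and Cdkn2b (p15) were mainly detected in aerocytes. In aerocytes Cdkn2a stood at 109 (aWT) and 121 CPM (aKO), and between 0.296 and 2.10 CPM in the other 4 subclasses of both libraries. Cdkn2b stood at 147 and 126 CPM in aerocytes. It was also found in general capillary cells, at 6.88 (aWT) and 23.7 CPM (aKO; log2 1.27), and at 0.707 to 2.76 CPM in arterial, venous and lymphatic cells. Over all endothelial-like cells Cdkn2a stood at 20.9 and 12.6 CPM (log2 -0.56), while within aerocytes its log2 ratio was 0.15, and the share of aerocytes among endothelial-like cells was 16.9% (aWT) and 11.7% (aKO). Cdk6, a cyclin D partner, had the opposite layout, with 6.01 and 7.06 CPM in aerocytes and 152 and 69.9 CPM in arterial cells (log2 -1.07). Cdkn2c, the inhibitor p18, stood in venous cells at 16.9 (aWT) and 37.9 CPM (aKO; log2 0.97), the subclass with the highest mitosis-high share in aKO.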
